A study of Mus musculus with 42 samples.

Results

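The genes described here are 10 macrophage genes read in sorted cells of the mouse colon: Csf1r, C1qa, C1qb, C1qc, Cd68, Adgre1, Mrc1, Lyz2, Chil3 and Spp1. They were chosen by measured values of these same libraries, since the list was drawn up with the knockout comparisons known, so their values in those comparisons are given as a description with no test. They are 10 of 19206 gene names that the 12 deposited tables hold, and they were read in the 8 tables of sorted cells. All 10 had a row in each of the 4 stromal tables. The goblet cell tables held 9 of them for proximal and 8 for distal GA3M2 cells, and 3 and 2 for proximal and distal GS4M2 cells.

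The study removed a part of BMP signaling from colon stroma with Gli1-CreERT2, a tamoxifen-dependent Cre that is made in Gli1-expressing stromal cells, and sequenced RNA of sorted cells and of epithelial organoids. GS4 mice carry floxed Smad4 on both alleles, GA3 mice carry floxed Alk3 (listed in the tables as Bmpr1a) on both alleles, and GWT controls carry Gli1-CreERT2 with neither floxed gene. All mice, controls included, were adults of both sexes that received tamoxifen on 5 days, and cells were taken at day 30. A T after the genotype stands for stromal cells sorted for the tdTomato reporter of Gli1-CreERT2 (GWTT, GS4T, GA3T), and M2 for goblet cells sorted for Muc2-mCherry (GWTM2, GS4M2, GA3M2). Each genotype, cell type and colon segment (proximal or distal) has 2 libraries, 24 in all, and the labels do not say whether 2 libraries came from separate animals, so the adjusted p-values below measure only the spread between these libraries. The remaining 18 libraries are of wild-type colonic organoids, 3 to a group, with no added cytokine, with 10 nM IL17A or with IL1α and IL1β at 10 nM, for 12 or 72 hours. Among the organoid controls 2 pairs of libraries held equal reads at both times for all 14364 genes in common, which leaves 16 distinct organoid libraries. Stromal libraries held 14222902 to 23686940 reads on named genes (median 17404903) and goblet cell libraries 15647603 to 20783127 (median 17607508).

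Macrophages of the colon lie in the lamina propria and the muscle layers, are renewed largely from blood monocytes, and clear debris and microbes while limiting inflammation. Csf1r signaling keeps them alive, and their state is commonly read from secreted and surface products such as complement C1q, scavenger and lectin receptors, lysozyme, chitinase-like proteins and osteopontin. Stromal cells supply Csf1 and other signals to them, and a sort by a stromal or goblet cell reporter is not meant to collect them.

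The targeted genes were read first, as normalized counts within each table. Smad4 was 1604 and 1673 in proximal GWTT stroma and 705 and 835 in GS4T stroma, and in distal stroma 1781 and 1703 against 680.3 and 1171. Bmpr1a was 2960.0 and 3220.2 in proximal GWTT and 2233 and 1842 in GA3T stroma, and distally 3359 and 3485 against 2203 and 2043. Both targets were thus lower in every knockout stromal library of their own line, and neither was near 0. In goblet cells, in which Cre is not expected, Smad4 overlapped between proximal GS4M2 (1776 and 1845) and GWTM2 cells (1904 and 1684) and was 2819.8 and 2790.3 in distal GWTM2 against 2571 and 2682 in distal GS4M2 cells. Bmpr1a was 1966 and 2131 in proximal GWTM2 and 1572 and 1336 in GA3M2 goblet cells, and distally 1588 and 1868 against 1372 and 1410.0. Lower Bmpr1a was not confined to the Alk3 line, since GS4M2 cells held 1468 and 1586 against 1846 and 2015 proximally and 1374 and 1500.2 against 1659.7 and 1936 distally, and Smad4 lay above the controls in GA3M2 cells, at 0.49 and 0.44. In stroma the target of the other line overlapped with the controls proximally and was lower distally, Smad4 at -0.30 in GA3T and Bmpr1a at -0.24 in GS4T on the log2 scale.

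Markers of the sorted cells were compared as RPM, the recovered reads scaled to a sum of 1000000 in each library, since each table was normalized separately. Col1a1, a fibroblast collagen, was 6139 to 14320.3 RPM over the 12 stromal libraries and at most 9.96 RPM in goblet cells, and it has no row in the GS4M2 tables. Pdgfra, a stromal receptor, was 925 to 2155 RPM in stroma. Muc2, the goblet cell mucin, was 733 to 24426 RPM in goblet cells and 3.61 to 669.6 RPM in stroma, and Epcam, an epithelial adhesion protein, 1607 to 3076 against 3.12 to 229 RPM. Epcam fit the labels in all 24 libraries and Col1a1 in those that list it, although the stromal libraries were not free of epithelial RNA. Muc2 lay above stroma in every goblet cell library, but only narrowly in GA3M2 cells. Muc2 was 9908 and 12374 RPM in proximal GWTM2 and 1027 and 733 RPM in proximal GA3M2 cells. Distally it was 2429 to 6270 RPM in GWTM2 and 752 to 932 RPM in GA3M2 cells. In GS4M2 cells it was 21082 to 24426 RPM proximally and 11164 to 14151 RPM distally.

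Some libraries stood apart. Gli1, which drives the Cre, was 1.40 RPM in the second proximal GS4T library and 1.98 RPM in the second proximal GA3T library, against 38.0 to 99.6 RPM in the other stromal libraries, while Col1a1 was 11198 and 12661 RPM in these libraries. Ptprc, which codes for the leukocyte surface protein CD45, was 38.0 to 74.2 RPM in stroma and at most 0.879 RPM in the goblet cell libraries that list it. Leukocyte RNA was therefore measurable in every stromal library, controls included, and the methods describe the stromal gate as single cells positive for tdTomato. The proximal GS4M2 table names its groups in the opposite way from a supplementary table of the study. The deposited names are used here, under which the GWTM2 libraries equal those of the GA3M2 table in all 13681 genes in common.

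Except in distal GA3T cells, nearly all members were higher in knockout than in control stroma, most widely in the proximal colon. All 10 members lay above both controls in both proximal GS4T libraries, and the same held for all 10 in proximal GA3T stroma. Of all genes tested there, 34.0% and 28.8% lay above both controls in both GS4T or both GA3T libraries, and limma called 9.61% and 0.358% (adjusted p below 0.05 with a log2 fold change of 1 or more in either direction). In distal stroma 9 members lay above the controls in GS4T cells and 1 overlapped, beside 34.4% of all genes above (14.0% called). Distal GA3T stroma held 5 members above, 1 below and 4 overlapping, beside 27.5% of all genes above and 26.8% below (0.00% called). The median log2 fold change of the 10 members was 2.14 in proximal GS4T, 2.16 in proximal GA3T, 1.41 in distal GS4T and 0.32 in distal GA3T stroma, where the medians of all genes tested were 0.02, 0.01, 0.00 and 0.01. Without the second proximal library, in which Gli1 was low, the members' median was 2.76 in GS4T and 1.86 in GA3T stroma. In these bulk libraries, fewer or more cells of a type and less or more RNA per cell cannot be told apart. The GS4T and GA3T tables of a segment share their GWTT libraries, so each comparison is given by its own values.

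**Figure D1:**
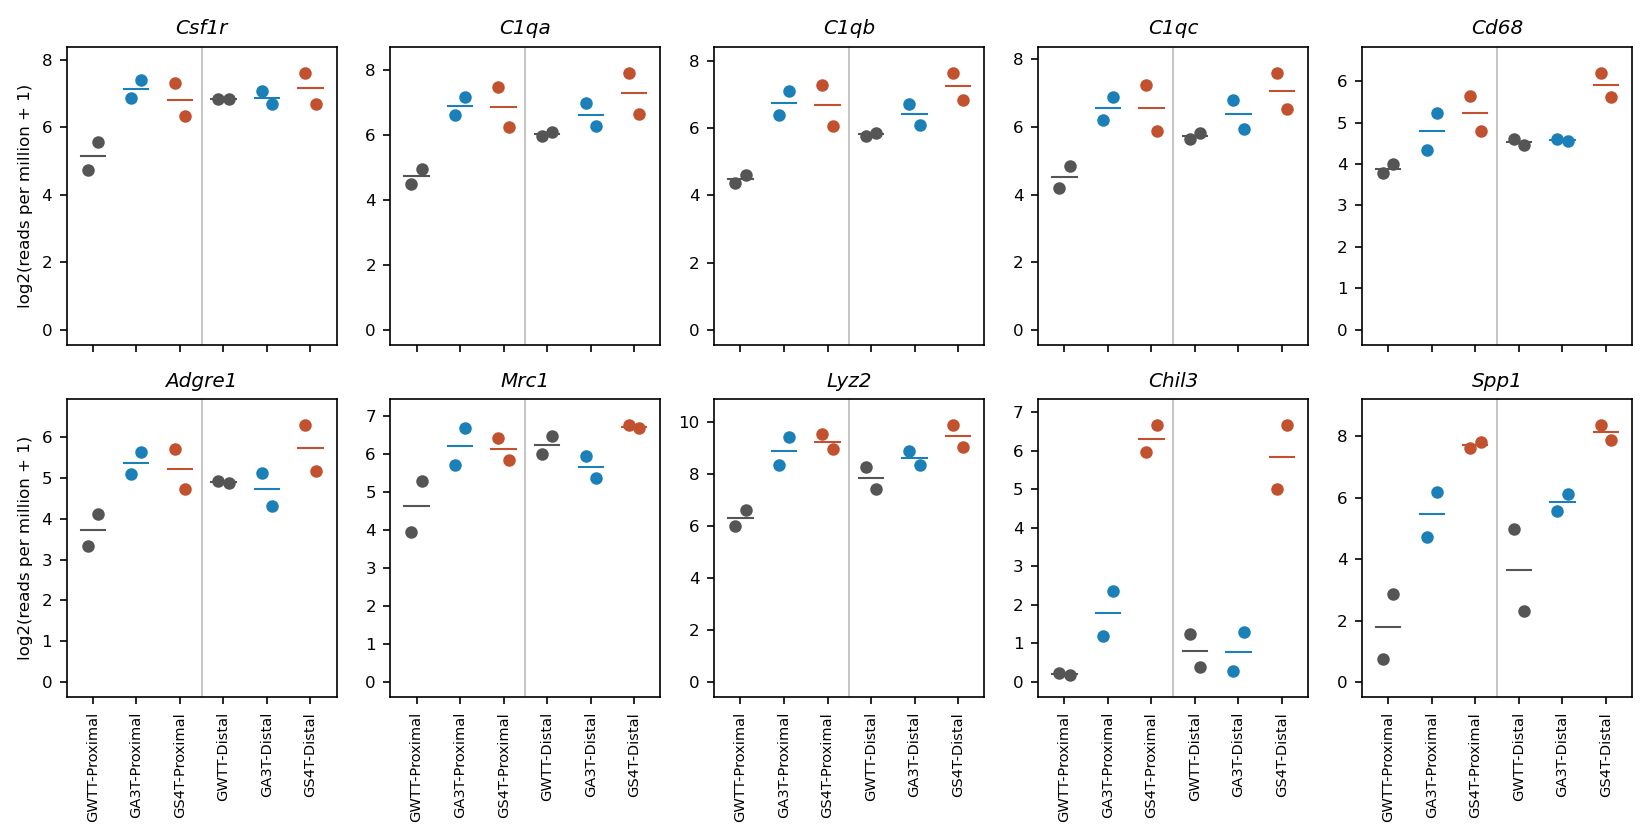
Level of each of the 10 macrophage genes in the 12 stromal libraries, as log2 of RPM plus 1, on a vertical axis that differs between panels. Each point is a library, the bar is the mean of the log2 values of its group, grey stands for GWTT, blue for GA3T and orange for GS4T, and the vertical line parts proximal (left) from distal (right); Lyz2 ran from 63.2 RPM in a proximal control to 939.6 RPM in a distal GS4T library.

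Csf1r (chr18:61100598-61132149, plus strand on GRCm38) codes for the receptor of Csf1 and Il34, on which most macrophages depend. Csf1r was 434 and 763 normalized counts in proximal GWTT and 2573 and 1352 in GS4T stroma. Csf1r in the table with GA3T cells was 457 and 803 in the same GWTT libraries and 2064 and 2977 in GA3T stroma. All 4 knockout libraries lay above the controls, with log2 fold changes of 1.69 for GS4T and 2.03 for GA3T on the scale of log2 of the count plus 1, which is used for all fold changes below. Distal Csf1r was 1850.2 and 1831 in GWTT and 3207 and 1720.3 in GS4T stroma. Csf1r on the scale of the GA3T table was 2111 and 2083 in distal GWTT and 2383 and 1958 in GA3T stroma. Here 1 library of each knockout lay above the controls and 1 below them, so the groups overlapped, at log2 fold changes of 0.35 and 0.04.

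Adgre1 (chr17:57358691-57483527, plus strand) codes for F4/80, an adhesion receptor used to mark mouse macrophages. Adgre1 was 152 and 274 normalized counts in proximal GWTT and 843 and 439 in GS4T stroma. Adgre1 in the table with GA3T cells was 159.9 and 288 in the same GWTT libraries and 593 and 851 in GA3T stroma. Adgre1 was higher in every proximal knockout library, by log2 fold changes of 1.57 in GS4T and 1.72 in GA3T. Distal Adgre1 was 481 and 465 in GWTT and 1274 and 589 in GS4T stroma. Adgre1 on the scale of the GA3T table was 549 and 529 in distal GWTT and 607 and 367 in GA3T stroma. The first GS4T library carried most of the distal difference, and the log2 fold change was 0.87 in GS4T with the groups apart and -0.19 in GA3T with the groups overlapping.

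Cd68 (chr11:69664213-69666153, minus strand) codes for a glycoprotein of endosomes and lysosomes that is abundant in phagocytes. Cd68 was 214 and 248 normalized counts in proximal GWTT and 803 and 462 in GS4T stroma. Cd68 in the table with GA3T cells was 225 and 261 in the same GWTT libraries and 347 and 645 in GA3T stroma. The proximal groups did not overlap, and the log2 fold changes of 1.40 in GS4T and 0.96 in GA3T were the smallest of the 10 members in both comparisons. Distal Cd68 was 382 and 339 in GWTT and 1195 and 807 in GS4T stroma. Cd68 on the scale of the GA3T table was 436 and 386 in distal GWTT and 416 and 434 in GA3T stroma. Distal GS4T libraries again lay above the controls, at a log2 fold change of 1.45, whereas GA3T values fell among the controls, at 0.05.

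C1qa, C1qb and C1qc code for the chains of C1q, the recognition subunit of the classical complement pathway, which tissue macrophages make in large part. The genes sit side by side on the minus strand of chromosome 4 in a stretch of 18675 bases on GRCm38, C1qb at chr4:136880129-136886187, C1qc at chr4:136889804-136893065 and C1qa at chr4:136895917-136898803. C1qa was 363 and 504 normalized counts in proximal GWTT and 2937 and 1293 in GS4T stroma. C1qb was 329.8 and 391 in the same controls and 2552 and 1132 in GS4T stroma. C1qc was 292 and 457 against 2444 and 987. The first GS4T library was the higher one for all 3 genes, and the log2 fold changes were 2.19, 2.24 and 2.09. In proximal GA3T stroma C1qa was 1744 and 2519, against 382 and 530.1 in the controls of that table. C1qb was 1489 and 2417 against 347 and 412. C1qc was 1316 and 2066 against 307 and 481. Here the second knockout library was the higher one, and the 3 log2 fold changes of 2.22, 2.32 and 2.10 rest on the same GWTT libraries as those of GS4T stroma.

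The distal controls held more C1q, and the distal differences were smaller. Distal C1qa was 1016 and 1108 in GWTT and 3986 and 1669 in GS4T stroma. Distal C1qb was 875 and 934 and 3292 and 1898. Distal C1qc was 802 and 896 and 3179 and 1530.1. All 3 genes stayed above the controls in both GS4T libraries, at 2.43-fold, 2.76-fold and 2.60-fold. In distal GA3T stroma C1qa was 2252 and 1483 against 1159 and 1261 in GWTT. C1qb was 1860.1 and 1306 against 998 and 1063 there. C1qc was 1983 and 1156 against 915 and 1020.1 there. The groups did not overlap for these genes either, with log2 fold changes of 0.60, 0.60 and 0.65.

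Mrc1 (chr2:14229392-14332057, plus strand) codes for the mannose receptor CD206, an endocytic lectin of resident and alternatively activated macrophages. Mrc1 was 245 and 636 normalized counts in proximal GWTT and 1392 and 969.8 in GS4T stroma. Mrc1 in the table with GA3T cells was 258 and 669 in the same GWTT libraries and 927 and 1781 in GA3T stroma. Both knockouts lay above the controls in the proximal colon, by 1.55 in GS4T and 1.63 in GA3T on the log2 scale. Distal Mrc1 was 1036 and 1433 in GWTT and 1769 and 1691 in GS4T stroma. Mrc1 on the scale of the GA3T table was 1181 and 1630.5 in distal GWTT and 1079 and 775 in GA3T stroma. Distally Mrc1 was above the controls in GS4T, at 0.51, but below them in both GA3T libraries, at a log2 fold change of -0.60, and it was the only member whose distal GA3T libraries both lay below the controls.

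Lyz2 (chr10:117277331-117282321, minus strand) codes for lysozyme M, which macrophages and neutrophils both make. Lyz2 was 1068 and 1620.0 normalized counts in proximal GWTT and 12027 and 8432 in GS4T stroma. Lyz2 in the table with GA3T cells was 1124 and 1703 in the same GWTT libraries and 5718 and 11939.6 in GA3T stroma. Lyz2 was the most abundant member in every stromal library, and its proximal log2 fold changes were 2.94 in GS4T and 2.58 in GA3T, with no overlap. Distal Lyz2 was 5085 and 2764 in GWTT and 15403 and 8624 in GS4T stroma. Lyz2 on the scale of the GA3T table was 5801 and 3145 in distal GWTT and 8289 and 6247 in GA3T stroma. The controls themselves were 5085 against 2764 in the GS4T table, and the knockouts lay above both, at log2 fold changes of 1.62 in GS4T and 0.75 in GA3T.

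Chil3 (chr3:106147554-106167564, minus strand) codes for Ym1, a chitinase-like protein secreted by macrophages and neutrophils of mice. Chil3 was 3.10 and 2.05 normalized counts in proximal GWTT and 996 and 1720.4 in GS4T stroma. Chil3 in the table with GA3T cells was 3.26 and 2.15 in the same GWTT libraries and 23.0 and 72.7 in GA3T stroma. With 3 and 2 reads in the controls, the reads of Chil3 in proximal GS4T stroma were 522 times the control (95% counting interval 224 to 1610.0), and in GA3T stroma 18.6 times the control (95% counting interval 7.73 to 58.3), intervals that cover counting error only. Distal Chil3 was 22.5 and 4.84 in GWTT and 510.2 and 1669.8 in GS4T stroma. Chil3 on the scale of the GA3T table was 25.7 and 5.51 in distal GWTT and 3.76 and 27.6 in GA3T stroma. Distal Chil3 was above the controls in both GS4T libraries, at a log2 fold change of 6.30, and overlapped in GA3T stroma, at -0.17.

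Spp1 (chr5:104435118-104441050, plus strand) codes for osteopontin, a secreted ligand of integrins and CD44 that macrophages make in injured tissue. Spp1 was 11.4 and 105 normalized counts in proximal GWTT and 3231 and 3863 in GS4T stroma. Spp1 in the table with GA3T cells was 12.0 and 109.9 in the same GWTT libraries and 455 and 1275 in GA3T stroma. The proximal controls were far apart, and all knockout libraries still lay above both of them, with log2 fold changes of 6.61 in GS4T and 4.33 in GA3T. Distal Spp1 was 508 and 64.9 in GWTT and 5420.0 and 3935 in GS4T stroma. Spp1 on the scale of the GA3T table was 580.1 and 73.8 in distal GWTT and 837 and 1318 in GA3T stroma. The first distal control was several times the second, and Spp1 lay above both in GS4T, at a log2 fold change of 4.66, and in GA3T, at 2.33.

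Chil3 and Spp1 thus had the largest log2 fold changes of the 10 members in 3 of the stromal comparisons, all but distal GA3T stroma, in which Spp1 and Lyz2 did. Cd68 and Mrc1 were among the smallest in proximal GS4T and GA3T stroma, and Csf1r and Mrc1 in distal GS4T stroma. Of the stretches of 50 transcript bases of Lyz2, Chil3 and Spp1, 15.4%, 26.9% and 11.6% also occur in Lyz1, in Chil4 or Gm6522, and in Gm42793, and of stretches of 100 bases 1.97%, 4.93% and 5.85%. How reads in such stretches were counted cannot be seen in the tables, and the paper describes unique mapping. The other 7 members shared no stretch of either length with another gene of the GENCODE M21 annotation. Lyz1, the neighbour of Lyz2 on chromosome 10 with 5475 bases between them, was 4.14 and 8.20 in proximal GWTT and 13.8 and 3.99 in GS4T stroma. Chil4, 33925 bases from Chil3 on chromosome 3, has no row in any table.

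In goblet cells the listed members differ between tables, so the counts of GA3M2 and GS4M2 cells are not set against each other. Of the 9 members listed for proximal GA3M2 cells 7 lay above the controls and 2 overlapped, beside 26.0% of all genes tested above (0.0899% called). Of the 8 listed for distal GA3M2 cells 7 lay above and 1 overlapped, beside 22.1% of all genes tested above (0.00% called). Of them 5 and 3 had no read in the controls and are listed only through the GA3M2 libraries, whose mean had to be higher, and the filter on a mean of at least 10 passed 7 and 6, several only through the knockout libraries. These counts therefore describe the listed values and support no difference. In GS4M2 cells 3 members were listed proximally, with 1 below the controls and 2 overlapping, beside 25.2% of all genes tested below (0.325% called). Distal GS4M2 cells listed 2, with 1 above and 1 overlapping, beside 23.1% of all genes tested above (0.00% called). All listed members of the GS4M2 tables passed the filter.

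**Figure D2:**
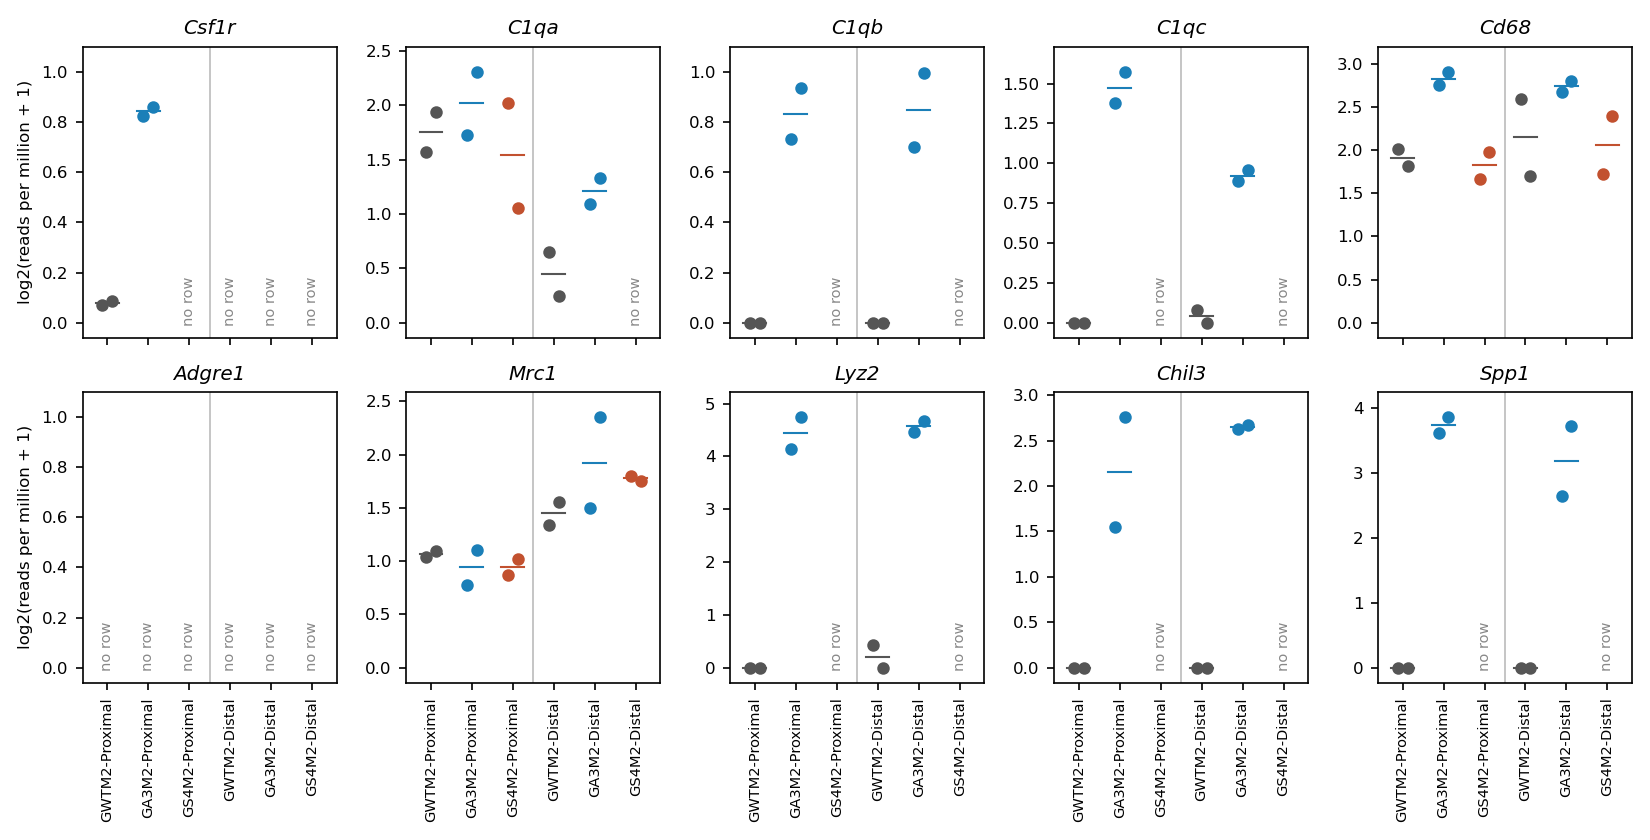
Level of each of the 10 macrophage genes in the 12 goblet cell libraries, as log2 of RPM plus 1, on a vertical axis that differs between panels. Points are libraries, bars the mean of the log2 values of a group, grey GWTM2, blue GA3M2 and orange GS4M2, proximal left and distal right of the vertical line, and a gene that a table does not list is written as having no row; Lyz2 was 16.7 and 25.8 RPM in proximal GA3M2 cells and 0 in the proximal controls.

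Lyz2, Spp1 and Chil3, which code for secreted products, had few or no reads in control goblet cells and were read in every GA3M2 library. The bounds below set no order among genes. Lyz2 had no read in either proximal GWTM2 library and 305 and 495 normalized counts in GA3M2 cells. Spp1 likewise had none against 204 and 258. Chil3 had none against 35.2 and 111. Against the 3 reads over the group that a count of 0 allows, these are at least 266-fold, 153-fold and 49.0-fold higher. In distal GWTM2 cells Lyz2 was 5.76 and 0, from 6 reads in all, and 362 and 401 in GA3M2 cells, which by reads is 124 times the control (95% counting interval 56.9 to 340.2). Distal Spp1 was 0 in both controls and 90.0 and 198 in GA3M2 cells, at least 94.4-fold higher. Distal Chil3 was 0 in both controls and 89.1 and 88.2 in GA3M2 cells, at least 57.8-fold higher. All 4 GA3M2 libraries lay above all 4 controls for these genes. Of all genes tested, 26.0% proximally and 22.1% distally lay above both controls of the segment in both GA3M2 libraries. Where a gene had no control read it is listed only through GA3M2 cells, so that order was fixed in advance and supports no difference. The GS4M2 tables have no row for Lyz2, Spp1 or Chil3.

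The C1q chains had far fewer reads in goblet cells than in stroma. C1qb in both segments and proximal C1qc, without a read in the controls, are likewise listed only through GA3M2 cells. C1qc was 0 in both proximal GWTM2 libraries and 29.2 and 37.8 in GA3M2 cells, at least 22.1-fold higher. C1qb was 0 as well and 12.1 and 17.5 in GA3M2 cells, at least 9.80-fold higher, though its mean did not reach the filter. C1qa was 35.6 and 51.4 in proximal GWTM2 and 42.3 and 75.6 in GA3M2 cells, and the groups overlapped, at a log2 fold change of 0.39. In proximal goblet cells of the controls C1qa was thus read without C1qb and C1qc. Distal C1qa was 9.60 and 3.28 in GWTM2 and 19.6 and 24.9 in GA3M2 cells (log2 fold change 1.78). Distal C1qb was 0 in the controls and 10.8 and 16.3 in GA3M2 cells, at least 8.84-fold higher and under the filter. Distal C1qc had 1 read in the controls and was 14.7 and 15.3 in GA3M2 cells, by reads 29.4 times the control (95% counting interval 4.90 to 1197), and it too was under the filter. In proximal GS4M2 cells C1qa was 50.5 and 18.3, against 33.5 and 48.6 on the scale of that table, with the groups overlapping at a log2 fold change of -0.39, and C1qb and C1qc have no row there.

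Among the receptors and the lysosomal protein, Cd68 was read in every goblet cell library. Cd68 was 54.8 and 45.6 in proximal GWTM2 and 105 and 125 in GA3M2 cells (log2 fold change 1.17). Distal Cd68 was 85.4 and 39.3 against 93.0 and 97.8 in GA3M2 cells, at 0.71, with the lower knockout library close to the higher control. In GS4M2 cells Cd68 was 35.7 and 49.9 proximally against 51.5 and 43.2, and 38.9 and 74.5 distally against 89.3 and 40.8, and the groups overlapped both times. Mrc1 was 19.2 and 20.5 in proximal GWTM2 and 13.1 and 22.1 in GA3M2 cells, and distally 25.9 and 33.9 against 31.3 and 67.1, overlapping in both segments. In GS4M2 cells Mrc1 was 13.7 and 17.3 against 18.0 and 19.4 proximally, below both controls at a log2 fold change of -0.27, and 41.7 and 41.4 against 27.1 and 35.1 distally, above both at 0.42. Csf1r had 1 read in each proximal GWTM2 library and was 14.1 and 15.7 in GA3M2 cells, by reads 14.7 times the control (95% counting interval 3.74 to 127), and it was under the filter. Csf1r has no row in the distal GA3M2 table or in the GS4M2 tables, and Adgre1 has no row in any goblet cell table. The median log2 fold change over the listed members was 3.96 in proximal and 3.67 in distal GA3M2 cells, or 3.29 and 3.33 with the genes at 0 in the controls set at their bound, which the listing through the knockout libraries raises, so it is set beside no other median. Over the 3 and 2 members listed for GS4M2 cells it was -0.27 and 0.13.

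Summed over the listed members, the RPM of the goblet cell libraries stayed far under those of stroma. The sum was 6.10 and 6.55 RPM in proximal and 7.54 and 4.38 in distal GWTM2 cells. In GA3M2 cells it was 41.6 and 60.4 proximally and 41.3 and 55.6 distally. GS4M2 cells held 6.07 and 5.06 and 4.79 and 6.64 RPM. The GA3M2 sums cover 9 and 8 genes and the GS4M2 sums 3 and 2, so they are not set against each other. Of the former 5 and 3 genes had no read in GWTM2 cells and are listed only through GA3M2 cells. The order of these sums therefore supports no difference. In GWTT stroma the sum was 184 and 301 RPM proximally and 735 and 606 distally. GA3T stroma held 821 and 1513 proximally and 1107 and 782 distally. GS4T stroma held 1830.0 and 1208 and 2393 and 1445 RPM. Each knockout stromal library lay above both controls of its segment, by little in distal GA3T stroma (782 against 735 RPM). There 4 members overlapped with the controls and 1 lay below them. Lyz2 was the most abundant member in every stromal library, and these sums of chosen members were not tested.

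The segments were compared in RPM, first in control stroma. In GWTT stroma 9 of the 10 members were higher in both distal than in both proximal libraries, Spp1 overlapped, and the median log2 difference of RPM plus 1 was 1.32, which was not tested. Of all genes with a mean of at least 1 RPM, 27.1% were higher distally, 22.1% proximally and 50.9% overlapped, with a median of 0.02. Csf1r averaged 35.9 RPM in proximal and 113 RPM in distal GWTT stroma. Lyz2 averaged 80.4 and 240.1 RPM. C1qa averaged 25.9 and 65.1 RPM. Mrc1, at 26.4 and 75.7 RPM, had a log2 difference of 1.61, and Cd68, at 13.8 and 22.1 RPM, one of 0.64. In both knockouts more of the members overlapped between segments, and so did more of all genes. All 10 members overlapped between proximal and distal GA3T stroma, with a median log2 difference of -0.26, beside 73.5% of all genes overlapping and a median of 0.03. In GS4T stroma 8 overlapped and 2 were higher distally, Mrc1 (71.1 and 105 RPM) and Spp1 (212 and 283 RPM), with a median of 0.46, beside 63.9% of all genes overlapping, 16.7% higher distally and a median of -0.02. Whether the segment order differs between genotypes was not tested.

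Between cell types, every listed member was higher in both GWTT than in both GWTM2 libraries of a segment, 9 of 9 proximally and 8 of 8 distally, beside 36.1% and 35.2% of all genes with a mean of at least 1 RPM. Of these members 5 and 3 had no read in the GWTM2 libraries and are listed there only through GA3M2 cells, so their order says little. In GA3 mice this held for 8 of 9 proximally and 7 of 8 distally, beside 34.6% and 32.4% of all genes, and Chil3 was the exception. Chil3 averaged 5.29 RPM in distal GA3M2 goblet cells and 0.822 RPM in distal GA3T stroma, with the goblet cell libraries above both stromal ones. Proximally it averaged 3.85 and 2.72 RPM, and the libraries overlapped. Lyz2 averaged 22.8 RPM in distal GA3M2 and 395 RPM in distal GA3T cells, a lower level by far than in stroma, unlike Chil3. In GWTM2 cells C1qa was higher proximally (2.40 RPM) than distally (0.377 RPM) and Mrc1 higher distally (1.73 against 1.10 RPM). The other 6 of 8 members listed in both segments overlapped. Of all genes with a mean of at least 1 RPM, 26.5% were higher proximally, 18.5% distally and 55.0% overlapped. The order of C1qa was the same in GA3M2 cells (3.13 and 1.33 RPM), and that of Mrc1 in GA3M2 and GS4M2 cells. C1qc was also higher proximally in GA3M2 cells (1.79 and 0.896 RPM), and 5 of 8 members overlapped there. Beside them 16.9% of all genes were higher proximally and 21.4% distally in GA3M2 cells, and 30.5% distally in GS4M2 cells. With so few members these orders say little.

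Levels of different genes were compared per kilobase of exon (RPM per kilobase, RPKM). In proximal GWTT stroma the order was Lyz2 (61.1 RPKM), C1qa (24.9), C1qb (19.8), C1qc (11.6), Cd68 (11.0), Csf1r (6.21), Mrc1 (4.15), Adgre1 (3.94), Spp1 (2.12) and Chil3 (0.0941). The libraries of Lyz2, C1qb, Cd68 and Spp1 stood clear of those of the next gene, and the other neighbours overlapped. In proximal GS4T stroma Spp1 (129 RPKM) came next after Lyz2 (468), Chil3 (49.6) after C1qc, and Mrc1 (11.2) last, and only Lyz2 stood clear of its next neighbour. Distal GS4T stroma had Lyz2 (553 RPKM), Spp1 (172) and C1qa (165) first, and Mrc1 (16.4) last. GA3T stroma kept Lyz2 first and Chil3 last in both segments, with Spp1 next after C1qc (29.8 RPKM proximally and 35.0 distally). In GA3M2 goblet cells the order began with Lyz2 (16.2 and 17.3 RPKM in the proximal and distal colon), Spp1 (7.48 and 5.27) and Cd68 (4.86 and 4.53). GWTM2 cells began with C1qa and Cd68 proximally (2.31 and 2.21 RPKM, overlapping) and with Cd68 distally (2.90).

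Other macrophage genes, 40 that are not members, were tested gene by gene within each stromal table. This list and those below were likewise drawn up with earlier results of these data known. Their counts beside the shares of all genes are therefore a description, and the lists are no independent sample of genes. In distal GS4T stroma 26 of the 38 tested were called by limma, 22 higher and 4 lower, beside 14.0% of all genes, with a median log2 fold change of 1.50 beside 0.00 over all genes. Marco, a scavenger receptor, was 26.4 and 10.6 in GWTT and 549 and 179.7 in GS4T stroma (log2 fold change 4.14, adjusted p = 0.011). Vsig4, a complement receptor, was 0 and 5.81 and 70.9 and 31.7 (4.22, adjusted p = 0.041). It passed the filter only through the GS4T libraries, so only a rise could be called for Vsig4. Of the 4 genes that fell, Ly6c2, Mgl2 and Timd4 had the largest fold changes. Ly6c2, a marker of inflammatory monocytes, was 1441 and 2076 in GWTT and 20.4 and 127 in GS4T stroma (-5.05, adjusted p = 0.0097). Mgl2, a lectin of macrophages and dendritic cells, was 146 and 152 and 8.86 and 2.35 (-4.70, adjusted p = 0.0066). Timd4, a phosphatidylserine receptor of long-lived resident macrophages, was 15.6 and 32.9 and 1.77 and 1.17 (-3.27, adjusted p = 0.036). For these 5 genes both GS4T libraries lay on the same side of both controls. The count rests on single libraries in part: it was 14 without the first GS4T library, 17 without the first and 16 without the second GWTT library.

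In proximal GS4T stroma 21 of 36 tested genes of this list were called, 20 higher and 1 lower, beside 9.61% of all genes, with a median log2 fold change of 1.81 beside 0.02 over all genes. Marco was 0 in both GWTT and 133 and 47.8 in GS4T stroma (adjusted p = 0.012). It passed the filter here only through the GS4T libraries, so only a rise could be called. Msr1, a scavenger receptor, was 23.8 and 46.1 against 434 and 290.1 (log2 fold change 3.38, adjusted p = 0.012). Marco thus rose in both segments of GS4T stroma. Cd14, a co-receptor for lipopolysaccharide, was 184 and 239 against 2147 and 1488 (3.09, adjusted p = 0.0052). Itgam, the CD11b integrin chain of myeloid cells, was 115 and 260.3 against 1540.1 and 795 (2.67, adjusted p = 0.028). Ly6c2 was 597 and 715 against 50.7 and 101 (-3.17, adjusted p = 0.01) and was the gene that fell. Both GS4T libraries again lay on 1 side of both controls for each of them. Only 1 gene was called without the first and 7 without the second GS4T library, the one with little Gli1, and all genes called went from 1472 to 119 and 360.

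In GA3T stroma limma called none of this list, neither of the 36 tested proximally nor of the 39 tested distally. Of all genes it called 0.358% and 0.00%. With the replicate number as a block it called 12 of the list proximally, and more of all genes too, as given at the end. Proximally the median log2 fold change was 1.64 beside 0.01 over all genes, 29 genes passed at that fold change with p below 0.05 before adjustment, and DESeq2 on the recovered reads called 22 and edgeR 0. Distally the median was 0.60 beside 0.01, 8 passed unadjusted, and DESeq2 called 7 and edgeR 0. Of all genes tested, 1451 of 15346 passed unadjusted proximally and 1197 of 15414 distally. The DESeq2 counts of all genes are given at the end. The proximal count was 1 without the second GWTT library and 1 without the first GA3T library, and the distal count 5 without the first GA3T library. In goblet cells limma called none of 13 and 12 tested genes in proximal and distal GA3M2 cells and none of 11 and 10 in GS4M2 cells. DESeq2 called 4, 4, 1 and 0 of them in these comparisons, edgeR 0 in each, and 4, 4, 1 and 0 passed unadjusted. Of all genes 911 of 13346, 539 of 13082, 567 of 13246 and 353 of 13078 passed unadjusted, in the same order. Limma called 0.0899%, 0.00%, 0.325% and 0.00% of all genes. The 1 gene of proximal GS4M2 cells therefore says little. These counts of all genes, and those of GA3T stroma, stand beside the lists below as well. A block by replicate number gave 5 in proximal GA3M2 and 1 in proximal GS4M2 cells. Acp5, an acid phosphatase that goblet cells also held in the controls and the most abundant of the list there, was 4382 and 3808 in proximal GWTM2 and 3228 and 3368 in GA3M2 cells (log2 fold change -0.31, adjusted p = 0.42). The goblet cell counts moved with single libraries: proximal GA3M2 to 4 without its first library, distal GA3M2 to 7 and 3 without the first and second GWTM2 library, proximal GS4M2 to 1 without the first GWTM2 or the second GS4M2 library, and distal GS4M2 to 1 without the first GWTM2 library.

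**Figure D3:**
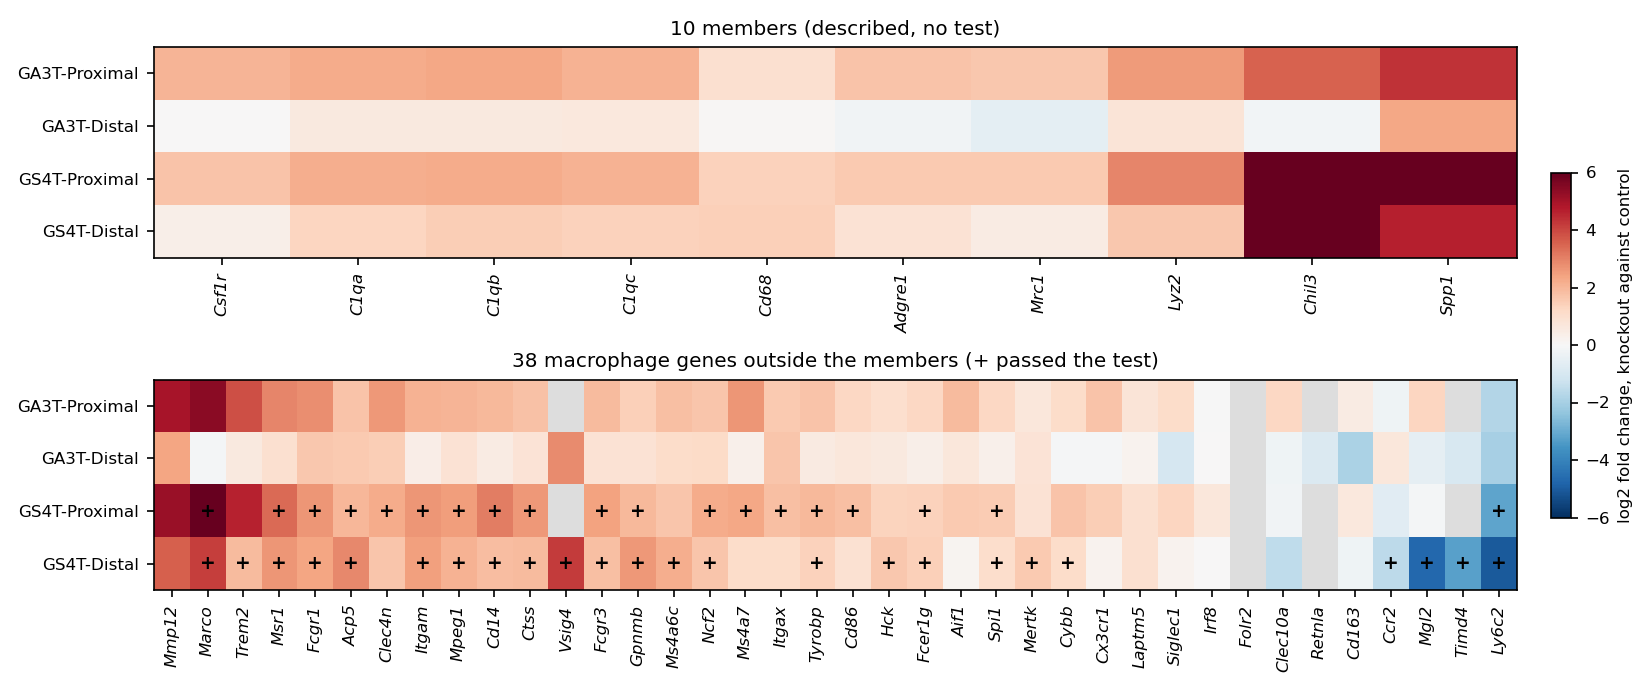
Log2 fold change of each gene (columns) against GWTT in the 4 stromal comparisons (one line each), with the 10 members above, which are described with no test, and 38 of the 40 other macrophage genes below. Colours stop at -6 and 6, a plus marks a gene that passed the test, grey marks a gene not tested or without a row, and the GA3T and GS4T comparisons of a segment share their controls; Ly6c2 was lowest in distal GS4T stroma, at -5.05.

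Of 8 growth factors, receptors and chemokines that act on macrophages, 4 of 7 tested were called in distal GS4T stroma, 3 higher and 1 lower, beside 14.0% of all genes. Ccl2, which draws monocytes, was 456 and 538 in GWTT and 2277 and 1543 in GS4T stroma (log2 fold change 1.92, adjusted p = 0.0038). Csf1, the ligand of Csf1r, was 8219 and 8864 and 3918 and 3267 (-1.25, adjusted p = 0.0034). Csf2rb, the shared receptor chain for Csf2, rose by 1.25 and the chemokine Cx3cl1 by 1.18 on the log2 scale (adjusted p = 0.02 and 0.006). In distal GS4T stroma the Csf1 ligand therefore fell while Ccl2 and Cx3cl1 rose. Proximally 4 of 8 were called, beside 9.61% of all genes, all higher: Csf2rb (2.41, adjusted p = 0.0081), Cx3cl1 (1.77, 0.025), Ccl2 (1.49, 0.028) and Il34 (1.47, 0.027). Il34, the other ligand of Csf1r, was 214 and 134 in GWTT and 439.9 and 502 in GS4T stroma. Csf1 was the most abundant of the list in all stromal libraries. In proximal GA3T stroma limma called none of 8, while 3 passed unadjusted and DESeq2 called 3 and edgeR 0, and in distal GA3T stroma none of 7 passed by any of these. In the 4 goblet cell comparisons limma, DESeq2 and edgeR called none of 4, and 1 passed unadjusted in proximal GA3M2 and 1 in proximal GS4M2 cells.

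None of 6 genes for the C1 proteases, the C1 inhibitor and the next complement components was called by limma, DESeq2 or edgeR in any sorted comparison, with 1 passing unadjusted in proximal GA3M2 and 1 in proximal GS4M2 cells, and C3, the most abundant in stroma, was 105836 and 121113 in proximal GWTT and 47155 and 72504 in GS4T stroma (log2 fold change -0.95, adjusted p = 0.12). Among 5 osteopontin receptors, Itgb3, an integrin chain, rose in GS4T stroma, from 1505 and 1452 to 4051 and 2459 proximally (1.09, adjusted p = 0.043) and from 1149 and 1151 to 4215 and 3349 distally (1.71, adjusted p = 0.0017). Itgav, its partner chain, rose in proximal GS4M2 goblet cells from 439 and 379 to 918 and 920.1 (1.17, adjusted p = 0.037). No other osteopontin receptor was called by limma in a sorted comparison, DESeq2 called 1 in each GA3M2 comparison and edgeR 0, and Itgb1 was the most abundant. Of 7 relatives of the members none was called by limma, DESeq2 or edgeR in a sorted comparison, and 1 passed unadjusted in distal GS4T stroma and 1 in distal GS4M2 cells. Mrc2, the most abundant relative in stroma, was 8611 and 9146 in proximal GWTT and 10194 and 10346 in GS4T stroma (adjusted p = 0.26), and Adgre5 was the most abundant in goblet cells.

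Markers of other cell types were read in the same comparisons, and those of neutrophils are given first. The counts of called genes in distal and proximal GS4T stroma below stand beside 14.0% and 9.61% of all genes called there, and with lists this short a single called gene says little. Unadjusted, 2828 of 15262 and 2446 of 15319 genes passed in these comparisons. In distal GS4T stroma all 8 tested neutrophil genes of a list of 10 rose, and in proximal GS4T stroma 5 of 6 did. S100a9, a calcium-binding protein of neutrophils, was 18.6 and 4.84 in distal GWTT and 999 and 1186 in GS4T stroma (log2 fold change 6.67, adjusted p = 0.002). Ly6g was 0 in both proximal GWTT and 452 and 331 in GS4T stroma (adjusted p = 0.0038), and Cxcr2 was 0 in both distal GWTT and 46.9 and 59.9 in GS4T stroma (adjusted p = 0.006). Both passed the filter there only through the GS4T libraries, so only a rise could be called, and the counts that hold them share this limit. Summed over the list, proximal GWTT stroma held 3.12 and 8.03 RPM, GA3T 13.8 and 48.9 and GS4T 71.4 and 92.5. Distal GWTT stroma held 6.97 and 4.35 RPM, GA3T 19.7 and 18.6 and GS4T 182 and 281. The most abundant neutrophil gene was S100a9 in distal GS4T and Ly6g or S100a9 in proximal GS4T libraries, and Elane has no row in the stromal tables. In GA3T stroma limma called none of 5 tested neutrophil genes in either segment, 3 passed unadjusted in each, DESeq2 called 3 proximally and 2 distally, and edgeR 0. Of all genes, 1451 of 15346 and 1197 of 15414 passed unadjusted in proximal and distal GA3T stroma. In goblet cells the sum was 1.06 and 0.378 RPM in proximal GWTM2, 19.8 and 82.1 in GA3M2 and 5.94 and 13.4 in GS4M2 cells. Distally it was 9.01 and 7.94 RPM in GWTM2, 73.0 and 125 in GA3M2 and 15.3 and 33.5 in GS4M2 cells. Nearly all of it was Ly6g, which epithelial organoids also expressed, and 7 of the 10 genes have no row in the GA3M2 tables. Limma and edgeR called none in goblet cells, DESeq2 called 1 in each comparison, and 1 passed unadjusted in each but distal GA3M2 cells, in which 2 did. Lyz2 and Chil3 belong to neutrophils as well as to macrophages, and the part of these cells in the members' values was not tested.

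Several markers of lymphoid and antigen-presenting cells fell in GS4T stroma. B and plasma cell markers fell, 4 of 6 distally and 1 of 4 tested proximally, with Jchain, the joining chain of secreted immunoglobulins, at 55665 and 76410.1 in distal GWTT and 1754 and 7215 in GS4T stroma (log2 fold change -4.20, adjusted p = 0.0087). Their sum, nearly all Jchain, was 1567 and 2790.0 RPM in proximal GWTT, 894 and 938 in GA3T and 429 and 829 in GS4T stroma. Distally it was 3495 and 4829 RPM in GWTT, 1802 and 1953 in GA3T and 112 and 449 in GS4T stroma. Of the dendritic cell markers, Cd209a and Flt3 fell in distal GS4T stroma, 2 of 5 tested, and Cd209a was at 0 in all 4 GS4T libraries. The dendritic cell sum was 12.4 to 32.8 RPM over the stromal libraries, with Zbtb46 the most abundant. MHC class II genes fell in distal GS4T stroma, 3 of 4, with Cd74 at 7303 and 8533 in GWTT and 3198 and 1492 in GS4T (-1.85, adjusted p = 0.016). Their sum was 813 and 985 RPM in distal GWTT and 368 and 137 in distal GS4T stroma, and 524 and 587 and 1094 and 385 proximally. GA3T stroma held 967 and 899 RPM of them proximally and 1316 and 903 distally. Goblet cells also read MHC class II genes, 386 and 9.70 RPM in proximal and 1455 and 13.9 in distal GWTM2 cells and 1609 and 1148 and 599 and 561 in GA3M2 cells, so that the control libraries of a segment differed widely. In GS4M2 cells the sums were 17.3 and 237 proximally and 15.5 and 126 distally. Cd8a fell in proximal GS4T stroma, the only one of 6 T cell genes tested to be called, the T cell sum was 14.8 to 42.7 RPM in stroma with Cd4 the most abundant, and no T cell gene has a row in the goblet cell tables. In GA3T stroma limma and edgeR called no lymphoid, dendritic cell or MHC class II gene, and DESeq2 called 1 B and plasma cell gene in each segment. Unadjusted, 1 B and plasma cell gene passed in each segment and 1 T cell gene proximally. The part of these cells in the members' values was not tested.

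Pan-leukocyte genes had medians of 0.10 and 0.38 on the log2 scale in proximal and distal GS4T stroma and 0.06 and 0.34 in GA3T stroma. Lcp1 was the only one of 6 called, higher in proximal (1.03, adjusted p = 0.021) and distal GS4T stroma (1.13, adjusted p = 0.027). Others of the list lay below the controls without being called: Ptprc in proximal GS4T (-0.33) and GA3T stroma (-0.31), and Cd52 in proximal (-0.43) and distal GS4T stroma (-1.01, adjusted p = 0.051). The sum of the 6 was 159.9 and 193 RPM in proximal GWTT, 158 and 228 in GA3T and 222 and 189 in GS4T stroma. Distally it was 169 and 206, 183 and 284 and 313 and 199 RPM in GWTT, GA3T and GS4T stroma. Ptprc or Lcp1 was the most abundant in each library, and the proximal knockout sums overlapped those of the controls. In goblet cells the sum was 12.8 to 38.9 RPM, nearly all of it Lcp1, and none was called there or in GA3T stroma by limma, DESeq2 or edgeR, nor passed unadjusted.

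Epithelial genes were read in the stromal libraries as well. All 6 epithelial genes rose in distal GS4T stroma, and none of 6 was called by limma in the other 3 stromal comparisons, with median log2 fold changes of 3.58 in proximal GS4T, 2.56 in proximal GA3T and 2.64 in distal GA3T stroma. There 4, 0 and 6 passed unadjusted, DESeq2 called 0, 0 and 5, and edgeR 0. The epithelial sum was 22.8 and 519 RPM in proximal GWTT, 507 and 763 in GA3T and 1179 and 1524 in GS4T stroma. Distally it was 63.8 and 175 RPM in GWTT, 1040.4 and 424 in GA3T and 672 and 1308 in GS4T stroma, and Krt8 was the most abundant in all but 1 of the stromal libraries. The first proximal GWTT library held the least by far. Of 7 goblet cell genes, Muc2, Tff3, Agr2 and Spink4 rose and Clca1 fell in distal GS4T stroma, and Muc2 fell in proximal GA3M2 goblet cells (log2 fold change -3.63, adjusted p = 0.046). By its values Muc2 also lay below the controls in distal GA3M2 cells (-2.26). It lay above them in proximal and distal GS4M2 cells (1.00 and 1.62). The goblet cell sum was 4.34 to 953 RPM in stroma and 9466 to 62899 in goblet cells. Ang4, 1 of 2 tested deep crypt and Paneth-like genes, fell in distal GS4T stroma, and that sum was 0.245 to 39.2 RPM in stroma. What part epithelial RNA has in the stromal values was not tested.

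Stromal, muscle, endothelial, mast cell and glial lists complete the comparison. Lum fell in both segments of GS4T stroma (-1.78 and -2.04) and Dcn in the distal one (-1.06), out of 7 stromal genes. Their sum was 40398 to 57289 RPM in stroma with Col3a1 the most abundant. In goblet cells the stromal sum was 4.35 and 22.4 RPM in proximal GA3M2 and 0.403 and 0.252 RPM in proximal GWTM2 cells, with Col1a1 the most abundant in the former. Distal GA3M2 cells held 0.854 and 0.469 RPM and distal GWTM2 cells 0.283 and 0, all of it Col1a1, and the GS4M2 tables have no row for these genes. Of the 4 stromal genes tested in proximal GA3M2 cells limma and edgeR called none, and all 4 passed unadjusted and by DESeq2. The part of stromal RNA in the GA3M2 members' values was not tested. Of 6 smooth muscle genes, Actg2 rose in both segments of GS4T stroma and Acta2 in the proximal one, and Myh11 fell in the distal one, with sums of 329 to 1592 RPM. In proximal GA3M2 goblet cells Acta2 was 1.83 and 0 in controls and 17.1 and 208 (5.19, adjusted p = 0.21) and Actg2 0.914 and 0 and 3.02 and 85.8 (3.75, adjusted p = 0.33). Of 3 smooth muscle genes tested there limma and edgeR called none, 1 passed unadjusted and DESeq2 called 2, the sum was 1.01 and 1.64 RPM in GWTM2 and 3.09 and 17.3 in GA3M2 cells, and the part of muscle RNA in the members' values was not tested. Of 6 endothelial genes, Tek fell in both segments of GS4T stroma and Cdh5 and Egfl7 rose in the proximal one, with sums of 39.7 to 174 RPM. No mast cell or glial gene was called by limma, DESeq2 or edgeR in a sorted comparison, 1 mast cell gene passed unadjusted in each GA3M2 comparison and 2 glial genes in distal GS4T stroma, and their sums reached 23.8 and 11.6 RPM.

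**Figure D4:**
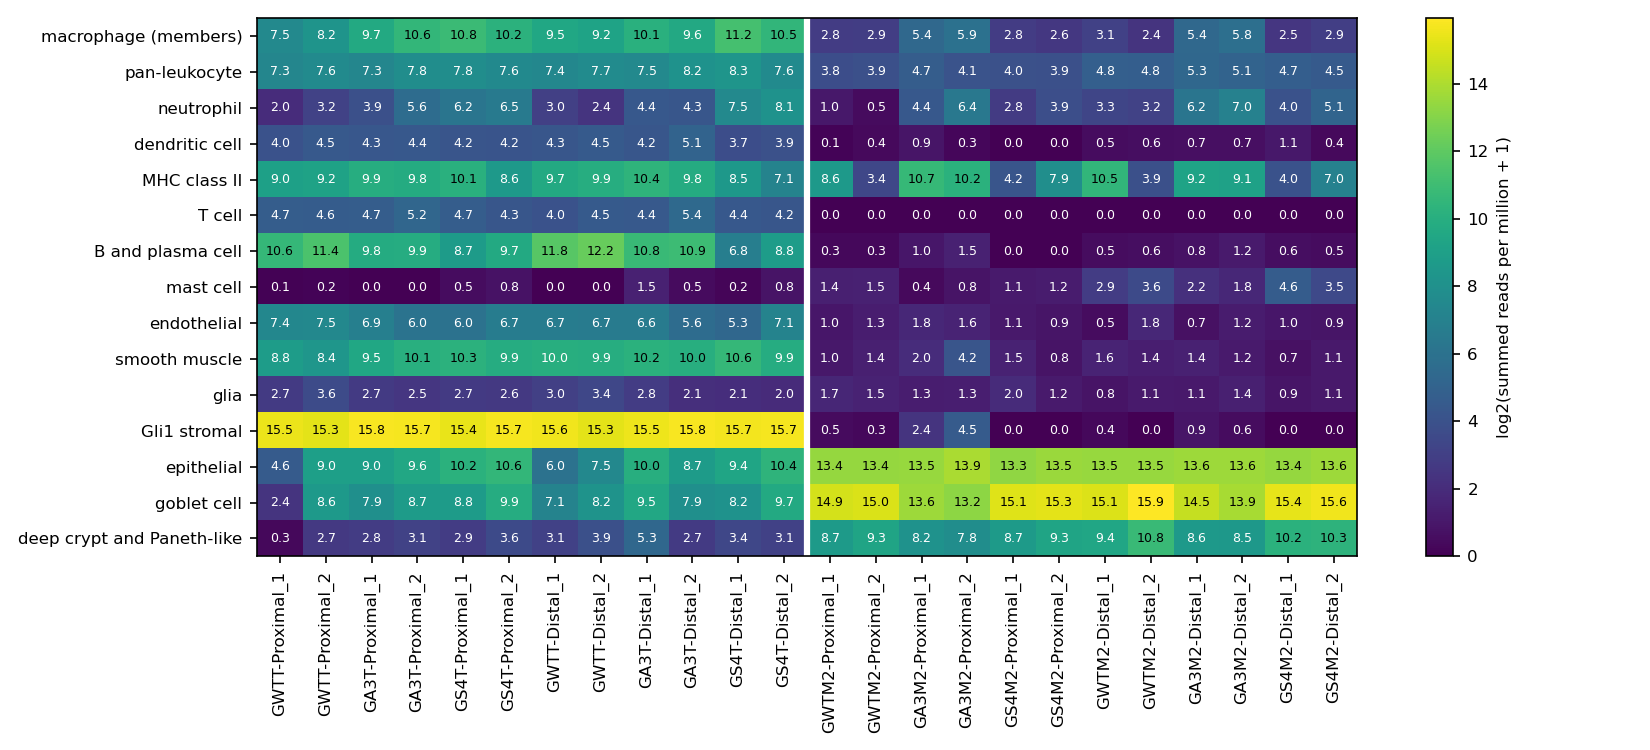
Summed level of each marker list (one line each) in the 24 sorted libraries (columns), as log2 of the summed RPM plus 1. Brighter fields are higher sums and the number in each field is its value, with 0.0 also where the table of a library lists none of the genes; within stroma the neutrophil sum ran from 3.12 RPM in a proximal GWTT library to 281 RPM in a distal GS4T library.

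Correlations over the 12 distinct stromal libraries describe the members only, since they were chosen on comparisons of these libraries and genes so chosen tend to vary together. Pearson's r of log2 of RPM plus 1 ran from 0.357 to 0.996 over the 45 pairs of members, with a median of 0.865, beside 0.0166 over the 909226 pairs of 1349 genes taken by name, a description with no p because the libraries share genotypes and segments. C1qa and C1qc had the highest r (0.996), and Csf1r and Chil3 the lowest (0.357). Chil3 stood furthest from the rest, with a median r of 0.537 over its 9 pairs, and C1qa closest, with 0.943. Among 13486 genes with a mean of at least 1 RPM, those most like Csf1r over these libraries were Ms4a7 (r = 0.964), Mrvi1, Pld4, Unc93b1 and Hpgds. For C1qa they were C1qc, C1qb, Cd300c2 (r = 0.987), Ms4a7 and Tyrobp. Those most like Lyz2 were Nfam1 (r = 0.989), Myo1e, Shisa4, Trem2 and Cd300c2. For Mrc1 they were Cd93 (r = 0.947), Ccdc68, Nipal4, Stab1 and Nedd9, none of them a member or a listed macrophage gene. Spp1 was closest to Il13ra1 (r = 0.975), Trappc1, Zfp810, Ccl6 and Psmd10.

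Over the goblet cell libraries the closest genes were others. Lyz2, listed in 8 of them, was most like Gpnmb (r = 0.992), Apoe, Prss22, Pard6b and Cldn4. Spp1, in the same 8, was most like Apoe (r = 0.998), Gpnmb, Pard6b, Lyz2 and Rbm3. Of these 8 libraries 4 are GWTM2, in which Spp1 had no read and Lyz2 had 6 in all, and 4 are GA3M2. A high r of these genes therefore mostly restates the gap between the groups and describes no link within them. Gpnmb, a listed macrophage gene, codes for a lysosomal glycoprotein, and it was at 0 in all 4 GWTM2 libraries. C1qa, in 10 libraries, was most like Naxd (r = 0.943), Pla2g12a, Sccpdh, Pqlc3 and Hilpda. Mrc1, in all 12, was most like Ces2g (r = 0.948), Dlg3, Lama5, Ldlrad3 and Abcg5. Neither of these sets held a member or a listed macrophage gene, and Csf1r, listed in 4 libraries, was left out.

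Colonic organoids, which the choice of members did not use, give the same genes in epithelium with IL17A or IL1 added. Only Cd68 and Mrc1 were read in all 4 organoid tables. After 72 hours Cd68 was 60.2, 37.9 and 30.5 normalized counts in controls and 99.7, 103 and 35.3 with IL17A (log2 fold change 0.78, adjusted p = 0.29). With IL1α and IL1β it was 118, 48.8 and 37.3, against 60.3, 38.1 and 30.5 (0.53, adjusted p = 0.43). Mrc1 was 25.7, 122 and 149 in controls and 45.7, 411 and 163 with IL1α and IL1β (0.89, adjusted p = 0.45), and its log2 fold change with IL17A was 0.13 (adjusted p = 0.91). After 12 hours the log2 fold change of Mrc1 was 1.47 with IL17A and 1.44 with IL1α and IL1β (adjusted p = 0.93 and 0.89), and that of Cd68 0.13 and -0.08. The groups overlapped, and neither gene was called by limma in any organoid comparison, with adjusted p between 0.29 and 0.95 and no unadjusted p under 0.05 for them. In these comparisons 0.0385% and 7.94% of all genes were called after 12 and 72 hours with IL17A, and 0.0542% and 23.0% with IL1α and IL1β. C1qa has a row only in the table of IL1 at 72 hours, with 40.8, 0.953 and 0 in controls and 0 in each treated library, under the filter, and the other 7 members have no row in the organoid tables. The distinct organoid libraries include controls used at both times.

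The 250 bases upstream of the members' starts were searched for GAGGAA, the core of the PU-box that the myeloid factor PU.1 binds, on both strands (TTCCTC on the other). RefSeq promoter entries on GRCm38.p6 were read for 7 members, in 8 windows. No window was read for C1qa, Csf1r and Adgre1, so the member counts leave these genes out. Whether promoter entries exist for them is not shown here. The letters occurred in 5 of the 8 windows, in C1qb, C1qc, Cd68, Mrc1 and Spp1, and in 7639 of 32851 windows of all genes (23.3%). They were not in the windows of Lyz2 and Chil3, which says only that these letters are absent there. The windows shown are those with a match that lie outside every gene of the annotation, upstream of C1qb at chr4:136886201-136886450 (minus strand, match 30 bases before the start), Cd68 at chr11:69666171-69666420 (minus strand, 225 bases before) and Spp1 at chr5:104434861-104435110 (plus strand, 113 bases before). Each is written 5′ to 3′ on the strand of its gene, with the match in capitals, which is a description and not a binding site.
C1qb: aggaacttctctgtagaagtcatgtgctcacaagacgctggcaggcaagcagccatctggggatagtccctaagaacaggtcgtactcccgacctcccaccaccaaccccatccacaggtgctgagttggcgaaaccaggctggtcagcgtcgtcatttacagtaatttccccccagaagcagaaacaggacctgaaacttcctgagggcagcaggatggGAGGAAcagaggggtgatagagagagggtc
Cd68: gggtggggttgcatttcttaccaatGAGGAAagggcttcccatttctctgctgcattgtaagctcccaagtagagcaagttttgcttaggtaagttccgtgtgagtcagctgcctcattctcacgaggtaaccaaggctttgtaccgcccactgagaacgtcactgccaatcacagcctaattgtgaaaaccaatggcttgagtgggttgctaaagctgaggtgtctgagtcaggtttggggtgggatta
Spp1: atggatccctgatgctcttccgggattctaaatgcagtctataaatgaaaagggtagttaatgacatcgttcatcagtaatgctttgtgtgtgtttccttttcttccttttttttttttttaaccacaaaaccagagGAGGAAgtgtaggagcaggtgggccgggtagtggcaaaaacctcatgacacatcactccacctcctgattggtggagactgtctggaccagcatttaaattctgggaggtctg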

How the data were processed

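RNA was sequenced from sorted stromal and goblet cells and from organoids, and the 12 deposited tables hold counts that the authors normalized per table (the signal used here), made with STAR 2.5.3, the mm10 genome and DESeq2 1.28.1 per the submitters' processing notes. Dividing each column by its smallest step gave whole numbers for 100% of values at a tolerance of 0.1, and these recovered reads served for RPM and counting intervals. Organoid libraries held 14815170 to 17665812 reads (median 17030322). Of each GS4M2 table, 4 lines carry no gene name and hold up to 28.2% of a library's values, and each table holds 17 to 21 names turned into dates, which were tested but are not named.

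Each knockout or treatment was compared with the controls of its table by limma 3.58.1 in R 4.3.3 with an intensity trend on log2(signal + 1), for genes with a mean of at least 10, and called where the p adjusted by Benjamini and Hochberg lay below 0.05 and the log2 fold change was 1 or more in either direction. The code was tested on simulated data. The members and lists were chosen with earlier results of these data known. Genes are named as follows: all members, Smad4, Bmpr1a and Gli1; of each list, up to 6 called genes per table with the largest fold change, or the most abundant where none was called; and the 5 genes most correlated with Csf1r, C1qa, Lyz2, Mrc1 and Spp1. Not every gene this rule picks is given. Other genes named were chosen after their values were seen. Alternatives were DESeq2 1.42.0 and edgeR 4.0.16 on recovered reads, pseudocounts of 0.1 and 10, no filter, unadjusted p, a replicate block and leaving out each library. Python 3.11.15 and GENCODE M21 were used.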

Additional observations from a re-analysis of the deposited data

Results flagged for a closer look

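Among the 10 members and 22 other named genes, 13 pairs of comparisons were flagged because every knockout library lay on one side of the controls in one comparison and every knockout library on the other side in the other. None of these differences was tested, and the values are log2 fold changes against the controls of each table.

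Mrc1 was 1.63 in proximal and -0.60 in distal GA3T stroma, -0.27 in proximal and 0.42 in distal GS4M2 goblet cells, and 1.55 in proximal GS4T stroma against the same -0.27 in proximal GS4M2 cells. Mgl2 was 1.30 in proximal and -0.56 in distal GA3T stroma.

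Acp5 was 2.01 in proximal GS4T stroma and -0.44 in proximal GS4M2 cells, 2.89 and -0.26 in the distal ones, and 1.71 in proximal GA3T stroma and -0.31 in proximal GA3M2 cells. Adgre5 was 0.76 in proximal GS4T stroma and -0.22 in GS4M2 cells, and 0.92 in proximal GA3T stroma and -0.44 in GA3M2 cells. C3 was -0.95 in proximal GS4T stroma and 1.32 in GS4M2 cells. Itgb1 was 0.36 in distal GS4T stroma and -0.19 in GS4M2 cells. Cx3cl1 was 0.31 in proximal and -0.83 in distal GS4M2 cells, and 1.18 in distal GS4T stroma.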

How the results depend on the processing

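With 2 libraries a group, the calls depend on single libraries and on the tool. When 1 library is left out, the lone library is assumed to vary like the other groups. The cause of the changes below was not tested.

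The members' median log2 fold change moved by less than the spread between replicates in the GS4T, GA3T and GS4M2 comparisons, but with 1 library left out it ran from -0.10 to 0.35 in distal GS4M2 cells (0.13), so its sign there rests on single libraries. It ran from -0.39 to -0.11 in proximal GS4M2 cells (-0.27), from 0.17 to 0.54 in distal GA3T stroma (0.32), from 1.86 to 2.45 in proximal GA3T stroma (2.16), from 0.96 to 1.88 in distal GS4T stroma (1.41) and from 1.51 to 2.76 in proximal GS4T stroma (2.14). In distal GA3M2 cells (3.67) it was 6.30 with a pseudocount of 0.1, 1.24 with 10, 5.52 by DESeq2 and 5.68 by edgeR. In proximal GA3M2 cells (3.96) it was 7.19, 1.30, 6.30 and 6.92, 5.10 over members with a mean of at least 10, 3.71 to 4.21 with 1 library left out, and 3.29 with genes at 0 set at their bound, an alternative chosen after seeing the data. The GA3M2 medians hold genes that are listed only through the knockout libraries and support no difference.

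Macrophage genes outside the members numbered 0 called in distal GA3M2 cells but 4 by DESeq2, 4 unadjusted and 0 to 7 with 1 library left out. In proximal GA3M2 cells (0) these were 4, 4 and 0 to 4, in distal GA3T stroma (0) 7, 8 and 0 to 5, in proximal GA3T stroma (0) 22, 29 and 0 to 1, and in proximal GS4M2 cells (0) 1, 1 and 0 to 1. Distal GS4M2 cells (0) gave 0 to 1, distal GS4T stroma (26) 14 to 27 and proximal GS4T stroma (21) 1 to 27 with 1 library left out. DESeq2 unadjusted, also chosen after seeing the data, gave 4 in distal and 5 in proximal GA3M2 cells, 7 in distal and 28 in proximal GA3T stroma and 1 in proximal GS4M2 cells.

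All genes called numbered 0 in distal GA3M2 cells but 238 by DESeq2, 539 unadjusted, 538 by DESeq2 unadjusted and 0 to 638 with 1 library left out. In proximal GA3M2 cells (12) they were 424, 911, 875 and 1 to 1036, 8 and 27 with pseudocounts of 0.1 and 10, and 20 without the filter. In distal GA3T stroma (0) they were 776, 1197, 1258 and 0 to 749, and 11 with a pseudocount of 10. In proximal GA3T stroma (55) they were 965, 1451, 1495 and 0 to 234, 6 and 87 with pseudocounts of 0.1 and 10, and 0 by edgeR. In distal GS4M2 cells (0) they were 146, 353, 384 and 0 to 232, and in proximal GS4M2 cells (43) 270.0, 567, 500.0 and 18 to 153. Distal GS4T stroma (2130) gave 1194 to 1915 with 1 library left out. Proximal GS4T stroma (1472) gave 2446 unadjusted, 2414 by DESeq2 unadjusted and 119 to 2154 with 1 library left out.

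With the replicate number as a block, the macrophage gene count was 5 in proximal GA3M2, 12 in proximal GA3T and 1 in proximal GS4M2 cells, and all genes called were 4 in distal and 699 in proximal GA3M2, 62 in distal and 253 in proximal GA3T and 260.0 in proximal GS4M2 cells. The block moved no other of these counts by over 1.5 times. Same-numbered libraries share only a number, in 2 pairs, with correlations of deviations of -0.06 to 0.30.

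Over all these results, 135 of the values that answer a comparison stayed the same, 27 were stronger, 5 weaker and 11 moved. Counts of called genes could be labelled only same, stronger or weaker, and an unchanged count, also one of no gene, was the same. Only a members' median of at least 1 in absolute value could be labelled reversed, and none was. Low counts limit the goblet cell values, in which several members rest on fewer than 50 reads a library. The goblet cell libraries held about as many reads as those of stroma (medians of 17607508 and 17404903).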
